A study of Mus musculus with 24 samples.

Results

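Mouse whisker (vibrissa) follicles kept for 24 h in medium with panthenyl ethyl ether and pyridoxine hydrochloride (PEE-PH) were compared with follicles given the same 2 compounds plus tocopherol acetate (PEE-PH-TA). The comparison used the 3 arrays titled PEE-PH-TA and the 3 titled PEE-PH, 6 of the 24 in the study. Whiskers came from B6C3F1 mice at postnatal day 9, and the medium was RPMI with 10% fetal bovine serum in every group. PEE was at 0.3%, PH at 0.015% and TA at 0.024%, so that both groups carried PEE and PH and differed by TA alone. The other 18 arrays were the untreated control, TA, PEE, PEE-TA, PH and PH-TA groups, 3 each. Each sample was RNA of 10 pooled follicles, and the labels call the 3 replicates independent experiments. The design asks what the third vitamin derivative adds to the other two.

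Panthenyl ethyl ether is a derivative of the provitamin panthenol, pyridoxine is vitamin B6, and tocopherol acetate is the esterified form of vitamin E, a lipid-soluble antioxidant that cells free from its ester. A whisker follicle holds a dividing epithelial matrix that builds the hair shaft and inner root sheath, an outer root sheath, and a dermal papilla and sheath of connective tissue. The dissected organ can also carry vessels, nerve and muscle. Dividing matrix cells need histones, centromere proteins, ribosomes and respiration. Mitochondria keep a small genome of their own, read from both strands, whose protein genes all encode subunits of the respiratory chain and the ATP synthase, and ND6 is the protein gene on the strand opposite to the others.

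Several mitochondrial transcripts were among the genes called, and the probes that measured them are shown first because the results below divide them by strand. These are 60-base probes as printed in the scan files, 5′ to 3′, and all letters are in lower case because no part is singled out. The files place them on the mitochondrial chromosome of build mm9 at chrM:2898-2957 (ND1), chrM:4670-4729 (ND2), chrM:6203-6262 (COX1), chrM:7870-7929 (ATP8), chrM:11370-11429 (ND4), chrM:13402-13461 (ND5) and chrM:15099-15158 (CYTB) on the + strand. The ND6 probe lies at chrM:13552-13611 on the - strand.
ND1: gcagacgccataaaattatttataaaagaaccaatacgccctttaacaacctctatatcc
ND2: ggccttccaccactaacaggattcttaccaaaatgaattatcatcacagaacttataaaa
COX1: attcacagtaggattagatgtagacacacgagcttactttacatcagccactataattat
ATP8: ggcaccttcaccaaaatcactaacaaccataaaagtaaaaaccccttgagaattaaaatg
ND4: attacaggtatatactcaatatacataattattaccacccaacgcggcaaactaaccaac
ND5: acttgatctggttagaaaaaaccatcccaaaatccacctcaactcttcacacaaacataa
CYTB: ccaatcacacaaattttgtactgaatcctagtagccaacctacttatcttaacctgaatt
ND6: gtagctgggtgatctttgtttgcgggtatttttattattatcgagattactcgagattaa

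Adding TA to PEE-PH raised 151 genes or transcripts and lowered 8 of 22065 tested, by limma at an adjusted p under 0.05. These are 0.684% and 0.0363% of all tested. The risers held 9 mitochondrially encoded protein genes printed under a gene symbol, the matricellular genes Ccn1 and Ccn2, replication-dependent histones and centromere genes. The 8 fallers held the extracellular antioxidant enzyme Sod3 and the clock output factor Hlf. Changes were small: 7 of the 159 reached 2-fold, and the lowest adjusted p was 0.00448 (Ccn1). An unadjusted p under 0.05 was reached by 3969. All 3 arrays of one group lay above the other group's for each of the 159, and over all genes this held for 3338 higher (15.1%) and 1776 lower (8.05%) with TA. By the sign of the mean difference alone, 13210 of the 22065 were higher and 8855 lower, which is the background for the counts of higher and lower members below. The 151 risers were mostly strongly expressed, with 111 of them (73.5%) above the 75th percentile of their array against 45.5% of all genes.

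The calls ended under several settings. By limma 0 genes passed with array signal as a covariate (2361 at an unadjusted p under 0.05), 0 with only the 6 arrays (3341) and 0 without scaling (5100), and 2 to 592 passed when 1 of the 6 arrays was left out. The 75th percentile of signal, in scanner units, was 199 to 217 on the PEE-PH arrays and 175 to 187 on the PEE-PH-TA arrays, which do not overlap, so TA and array signal cannot be told apart within this comparison. With the signal covariate the median difference was 0.55 for mitochondrially encoded genes, 0.33 for histones and 0.23 for cell cycle genes, against 0.68, 0.36 and 0.21 without it. Each slide held 1 replicate number of all 8 groups, and with slide as a block 322 genes rose and 26 fell. Across the other groups it ran from 142 (PEE) to 248 (PH-TA). Levels below are log2 of signal relative to that percentile of the same array. Leaving out this scaling moves every gene of a comparison by the same amount, and it took the median of all genes from 0.05 to -0.16. Normexp background correction, which removes a modelled background, gave 234 higher and 43 lower. Arrays correlated across genes at 0.9925 to 0.9965 within groups and 0.9916 to 0.9952 between groups.

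Of 10 mitochondrially encoded protein genes measured under a gene symbol, 9 rose with TA and ND6 did not pass. Mitochondrial probes that carry only a transcript identifier are not in this group, and what they encode was not looked up. The group was chosen after its values were seen, and its median difference was 0.68 against 0.05 over all genes. ND1, a core subunit of complex I, stood at 5.15, 5.19 and 5.06 on the PEE-PH-TA arrays and at 4.17, 4.29 and 4.50 with PEE-PH. The groups do not overlap, and the difference was 0.82 (SE 0.15, adjusted p = 0.0304), or 1.76-fold. ND5, another complex I subunit, was at 5.78, 5.73 and 5.74 with TA and 4.90, 5.07 and 5.13 without it. Its difference was 0.72 (SE 0.14, adjusted p = 0.0371), with the TA arrays close together and all above the others. COX1, the catalytic subunit of cytochrome oxidase, was at 6.50, 6.42 and 6.52 against 5.71, 5.90 and 5.92, a difference of 0.63 (adjusted p = 0.0485). ATP8, of the ATP synthase, differed by 0.80 (adjusted p = 0.0431), and CYTB, of complex III, by 0.58 (adjusted p = 0.0436). The complex I subunits ND2, ND4 and ND4L rose by 0.75, 0.62 and 0.64. ND3 rose by 0.84 (adjusted p = 0.0304), but the files place its probe on chromosome 1 at 24619613 to 24619672, so a nuclear copy cannot be told apart there. ND6 was at -0.38, -0.20 and -0.15 with TA against -0.15, -0.08 and -0.04 without, a difference of -0.16 (SE 0.13, adjusted p = 0.55). Its TA arrays all lay lower, by little in the closest pair.

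The probes divide by strand. The files place 16 probes on the mitochondrial chromosome, among them transcript models and 1 antisense clone. All 14 on the + strand were higher on every PEE-PH-TA array than on any PEE-PH array, with differences of 0.28 to 0.82 and a median of 0.66, and 12 of the 14 passed. The 2 on the - strand, ND6 and the antisense RNA clone GU332589, differed by -0.16 and 0.04 (adjusted p = 0.55 and 0.93). The 2 + strand probes that did not pass were the brightest, AK140265 and ENSMUST00000188231.1, with 0.28 and 0.33. No spot of these probes was marked saturated. Without scaling between arrays the 14 still lay above on all 3 arrays, by 0.07 to 0.61, where 2.06% of all genes did so. The 14 are not independent, since the probes of ND4L (chrM:10114-10173) and of a transcript model (chrM:10111-10170) overlap. The - strand probes were also dimmer, with PEE-PH means of -0.09 and 2.83 against 4.32 to 9.15 on the + strand. The difference between the strands, and the part of level in it, was not tested.

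**Figure D1:**
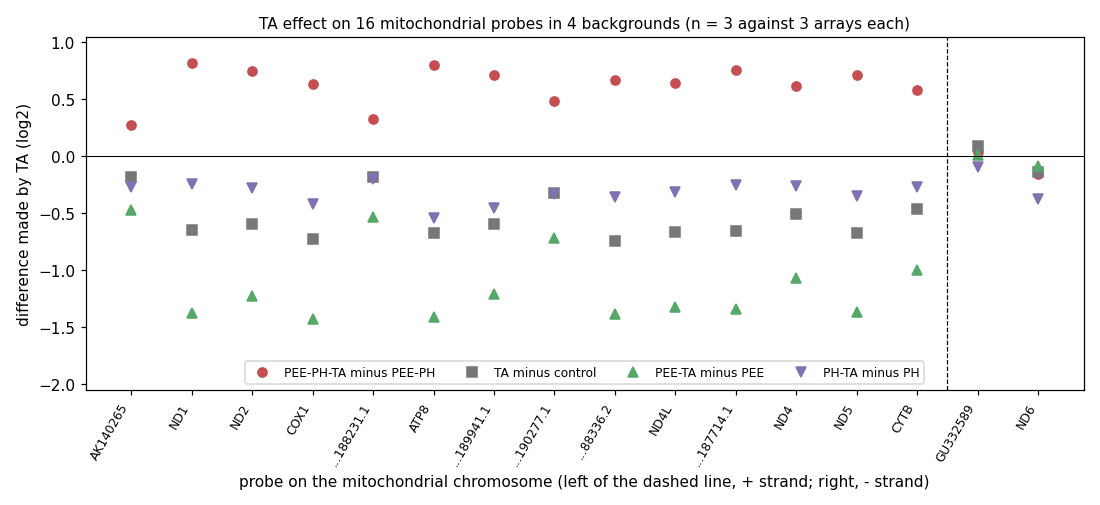
Difference made by TA (log2) at 16 mitochondrial probes in 4 backgrounds, each a mean of 3 arrays minus a mean of 3, with + strand probes left of the dashed line and - strand probes right of it; identifiers of transcript models are shortened. Relative to the array percentile, the + strand probes lie at 0.28 to 0.82 over PEE-PH and below 0 in the other 3 backgrounds. The - strand probes lie at -0.16 and 0.04 over PEE-PH.

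In the other backgrounds the same + strand probes were lower with TA relative to the array percentile. All 14 lay below 0 with TA alone, in PEE and in PH. Leaving out the scaling moves every gene over PH alike, and took the median of all genes there from -0.03 to 0.26. The PH differences of ND1 (-0.24), CYTB (-0.27) and ENSMUST00000188231.1 (-0.20) were smaller than this shift, while that of ATP8 (-0.54) was larger. For part of the 14 the sign over PH therefore depends on the scaling. For ND1 the TA effect was -0.65 over control (adjusted p = 0.034), -1.38 over PEE (adjusted p = 1.4e-05) and -0.24 over PH (adjusted p = 0.40), against 0.82 over PEE-PH. The median level of the 10 genes was 6.61 to 6.69 on PEE-PH-TA arrays and 5.74 to 6.08 on PEE-PH arrays. It was 6.85 to 7.15 in control, 7.46 to 7.55 with PEE, 5.99 to 6.47 with PEE-TA, 6.14 to 6.39 with PH, 5.49 to 6.10 with PH-TA and 6.21 to 6.53 with TA alone. Levels were highest on the PEE arrays, whose signal was the lowest (142 to 147), and the part of array signal in this order was not tested.

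**Figure D2:**
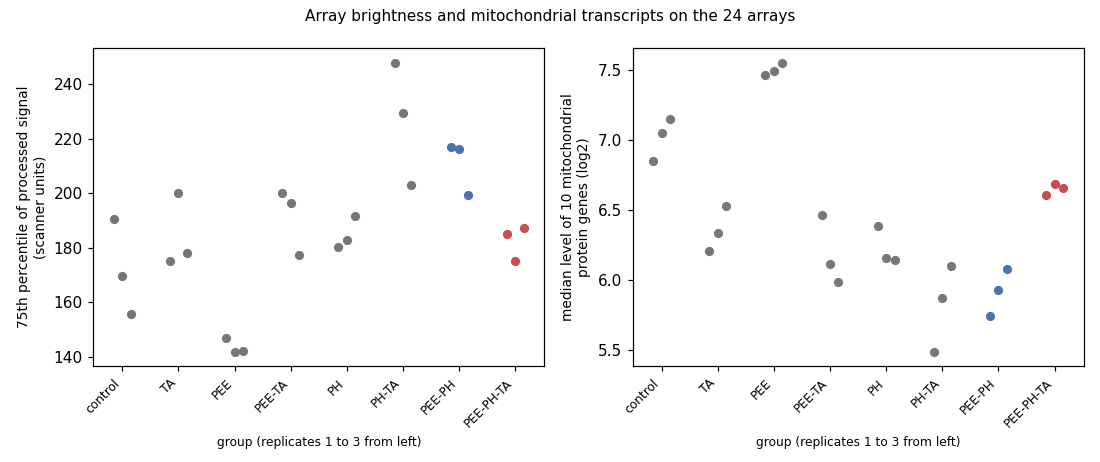
Left, the 75th percentile of processed signal (scanner units) on each of the 24 arrays; right, the median level of 10 mitochondrial protein genes (log2 relative to that percentile), with replicates 1 to 3 from left in each group. The PEE-PH-TA arrays (red) lie at 175 to 187 and 6.61 to 6.69, and the PEE-PH arrays (blue) at 199 to 217 and 5.74 to 6.08.

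Ccn1, with the lowest p of all genes, and Ccn2 rose. They encode secreted matricellular proteins that are known targets of the TEAD factors and serum response factor. Ccn1 (NM_010516, mm9 chromosome 3, 145310187 to 145310246) was at 2.39, 2.51 and 2.55 with TA and at 1.63, 1.59 and 1.66 with PEE-PH. The difference was 0.86 (SE 0.11, adjusted p = 0.00448), 1.82-fold, with 0.76, 0.93 and 0.89 within replicate numbers. Ccn2 (NM_010217) was at 3.25, 3.13 and 3.38 against 2.66, 2.72 and 2.68. It rose by 0.57 (SE 0.08, adjusted p = 0.0124). The groups did not overlap for either gene. Of 23 immediate early genes measured, Ccn1 and Ccn2 passed, 18 were higher and the median was 0.16. TA alone gave 0.03 and 0.10 for them. The calls of Ccn1 and Ccn2 held under 13 and 11 of 19 alternatives, with adjusted p from 0.000573 to 0.38 and from 0.00226 to 0.38.

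The 250 bases before the RefSeq start of Ccn1 are shown because it had the lowest p of all genes. They lie on build GRCm38.p6 at chr3:145649986-145650235, on the - strand, and are printed 5′ to 3′ in the direction of the gene. Capitals mark the match to GGAATG, the core letters bound by TEAD factors, searched on both strands, whose first base is at -103 from the start, with the letters on the opposite strand. It is a match of letters only, and 12.6% of 32851 promoters of the same length in the table hold 1 or more.
Ccn1: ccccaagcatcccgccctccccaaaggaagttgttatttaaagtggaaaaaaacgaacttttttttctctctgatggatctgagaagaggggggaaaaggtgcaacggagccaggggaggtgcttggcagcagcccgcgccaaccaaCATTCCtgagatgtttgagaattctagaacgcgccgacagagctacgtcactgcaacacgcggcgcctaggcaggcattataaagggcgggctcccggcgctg

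Other large risers were spread over many functions. Rgs1, a brake on G-protein signalling in immune cells, was at -3.03, -2.93 and -2.71 with TA and at -3.70, -4.08 and -3.60 without, a rise of 0.90 (SE 0.16, adjusted p = 0.0281). Slc22a6, an organic anion transporter, rose by 0.88 (adjusted p = 0.0436) and Fgd3, a Cdc42 exchange factor, by 0.76 (adjusted p = 0.045). Defb6, a beta-defensin, was at 4.66, 4.48 and 4.51 against 3.82, 3.89 and 3.73, a rise of 0.74 (SE 0.12, adjusted p = 0.0267) with no overlap. Pnpla3, a lipid droplet hydrolase, rose by 0.74 (adjusted p = 0.0371). H2ac6, a histone H2A gene, rose by 1.24 (adjusted p = 0.0436), with 1 of the 3 PEE-PH arrays well above background. Gfod1 rose by 0.72 (adjusted p = 0.0135) at one probe, while its other probe gave -0.08.

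**Figure D3:**
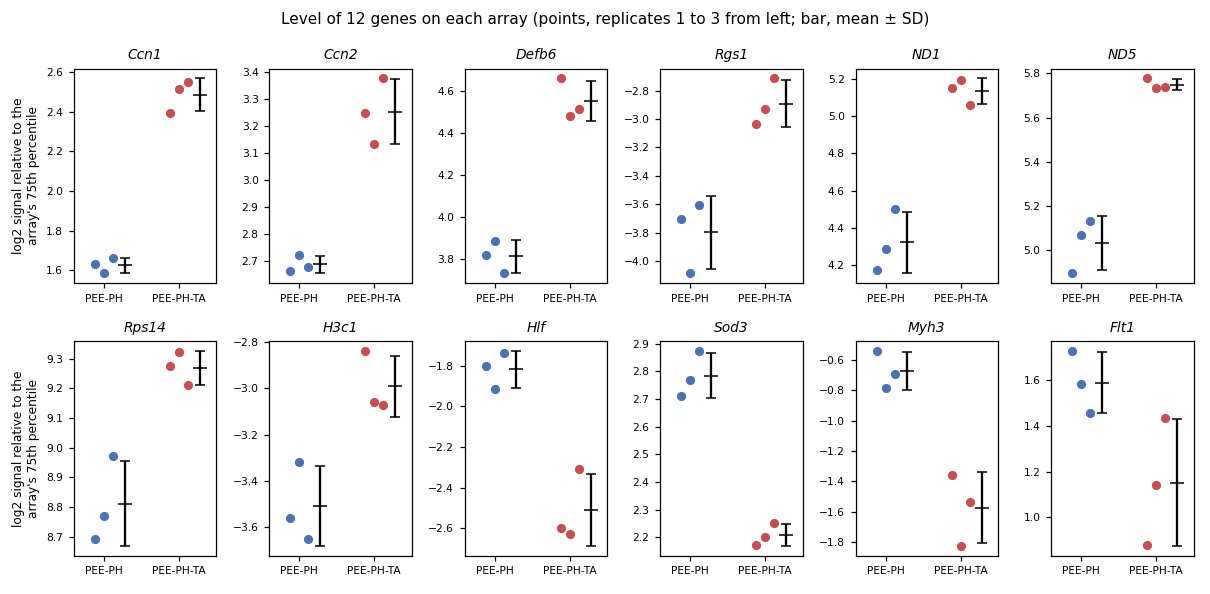
Level of 12 genes on each array (log2 relative to the array's 75th percentile, each panel with its own axis), with PEE-PH in blue and PEE-PH-TA in red, replicates 1 to 3 from left, and a bar for the mean ± SD. All 3 red points lie above the blue ones for Ccn1 to H3c1 and below them for Hlf to Flt1, where Flt1 did not pass.

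Some genes of chromosome packaging and division rose. Of 50 replication-dependent histone genes measured, 12 rose and 46 were higher, with a median difference of 0.36, and of 29 centromere, NDC80, SKA and shugoshin genes 5 rose and 27 were higher, with a median of 0.37. Both families were picked with their values in view. H3c1, a histone H3 gene, was at -2.84, -3.06 and -3.07 with TA against -3.56, -3.32 and -3.65, a rise of 0.52 (SE 0.11, adjusted p = 0.0413). H1f2, a linker histone, rose by 0.37 (adjusted p = 0.0465) and H2ac11 by 0.43 (adjusted p = 0.0371). H2A genes are near-identical copies, and 1 probe can bind several, so these are not independent genes. Histone messages of this class usually end in a stem-loop without a poly(A) tail. Among centromere genes, Spc24 of the NDC80 complex was at 1.29, 1.23 and 1.10 against 0.75, 0.82 and 0.77, a rise of 0.43 (adjusted p = 0.0396). Sgo1, which guards sister chromatid cohesion, rose by 0.43 (adjusted p = 0.0371), and Cenps and Cenpk by 0.51 and 0.43. The replication factors Gins1, Gins2, Rfc5 and Rpa3 rose by 0.35, 0.55, 0.36 and 0.42, and the spindle checkpoint gene Mad2l1 by 0.47 (adjusted p = 0.0491).

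In the list of 38 cell cycle and mitosis genes, 0 passed by limma, although 37 were higher, 19 had an unadjusted p under 0.05 and the median was 0.21. Birc5, of the chromosomal passenger complex, differed by 0.42 (adjusted p = 0.070) and Bub1 by 0.40 (adjusted p = 0.078). Top2a, a topoisomerase of dividing cells, differed by 0.11 (adjusted p = 0.56). The list's median was 0.17 to 0.20 after quantile normalization, with normexp and in the authors' value table. Without scaling it was 0.0045 with 20 of 38 higher, against -0.16 for all genes.

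Ribosomal protein genes were higher by small amounts that depended on the scaling. Of the 26 in the list, 3 rose and 26 were higher, with a median of 0.16, and of all 85 measured 4 rose and 82 were higher. Rpl11 was at 8.67, 8.70 and 8.73 with TA and at 8.36, 8.29 and 8.45 without, a rise of 0.34 (SE 0.07, adjusted p = 0.0371). Rpl5, which like Rpl11 sits in the large subunit, rose by 0.25 (adjusted p = 0.0489), and Rps14 of the small subunit by 0.46 (adjusted p = 0.0436). After quantile normalization the list's median was 0.0021 with 13 of 26 higher, in the authors' value table -0.011, and without scaling -0.05 against -0.16 for all genes. Respiratory genes encoded in the nucleus gave 2 risers of 85, Ndufb8 (0.46, adjusted p = 0.0436, with 0.10 at its other probe) and Atp5l (0.41), and a median of 0.16. That median was -0.05 without scaling, again against -0.16 for all genes. The mitochondrially encoded genes kept a median of 0.47 to 0.64 under the other scalings and 0.55 with the signal covariate.

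Of the 8 fallers, 7 have gene names. Sod3, the extracellular superoxide dismutase, was at 2.17, 2.20 and 2.25 with TA and at 2.71, 2.77 and 2.87 without. It fell by 0.58 (SE 0.13, adjusted p = 0.0436), the 1 gene to pass of 25 antioxidant enzymes, whose median was 0.13. Hlf, a transcription factor under clock control, was at -2.60, -2.63 and -2.31 against -1.80, -1.92 and -1.74, a fall of 0.69 (SE 0.13, adjusted p = 0.0371). It was the 1 to pass of 18 clock genes, of which 16 were lower. Kiss1r, the kisspeptin receptor, fell by 0.97 (SE 0.22, adjusted p = 0.0463) and Hsd17b11, a steroid and lipid droplet dehydrogenase, by 0.48 (adjusted p = 0.0371). Over 19 alternatives the Kiss1r difference ran from -1.18 to -0.11, and its call held in 4. The calls of the other named fallers held in 4 or 5. Podn, a matrix proteoglycan, was at -0.53, -0.80 and -0.85 against 0.01, -0.21 and -0.25, a fall of 0.58 (adjusted p = 0.0413). Ogfod3 fell by 0.30 (adjusted p = 0.0431).

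Myh3, the embryonic myosin heavy chain of skeletal muscle, fell by 0.90 (SE 0.20, adjusted p = 0.0436), from -0.54, -0.79 and -0.69 to -1.36, -1.82 and -1.53. It was the 1 to pass of 20 skeletal muscle markers, of which 19 were lower. The markers' median was 0.09, -0.62 and -0.79 within replicates 1, 2 and 3, and their summed level was 109 to 156 with TA and 131 to 171 without, relative to the array percentile, so the groups overlap. Muscle can be left on a follicle at dissection, and its part in the Myh3 value was not tested. In RNA of whole follicles, fewer cells of a type and less RNA per cell cannot be told apart.

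The study's title names PlGF and VEGFR-1, encoded by Pgf and Flt1, an endothelial growth factor and its receptor. Of 10 ligands and receptors of this family, 0 passed by limma, and 2 had an unadjusted p under 0.05. Pgf was at -0.01, 0.30 and 0.24 with TA and at 0.56, 0.38 and 0.29 without, a difference of -0.23 (SE 0.14, adjusted p = 0.40), with overlapping groups. Flt1 was at 0.88, 1.14 and 1.44 against 1.73, 1.58 and 1.46, a difference of -0.44 (SE 0.15, adjusted p = 0.133). Its TA arrays were all lower, but by 0.02 in replicate 3. Kdr, the main VEGF receptor of vessels, differed by -0.26 (adjusted p = 0.304) and the co-receptor Nrp1 by -0.22 (adjusted p = 0.166). Vegfa differed by -0.03 (SE 0.16) and Vegfb by -0.03 (SE 0.13), and their signs turned when some arrays were left out. Over control, TA alone gave 0.61 for Pgf (adjusted p = 0.037), and that effect differed from the one over PEE-PH (adjusted p = 0.013). For Flt1 the difference between these effects had an adjusted p of 0.095.

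Most genes of the collagen and matrix list and of the blood endothelial list lay lower, and none of them passed. The matrix gene Podn, which fell, is in neither list. Of 38 collagen and matrix genes 31 were lower, with a median of -0.28, 17 unadjusted p-values under 0.05 and 0 passing by limma. Col1a1, the main collagen of skin, was at 6.08, 6.15 and 5.99 with TA and at 6.88, 6.57 and 6.31 without, a difference of -0.51 (SE 0.23, adjusted p = 0.246). Of 15 blood endothelial markers 14 were lower, with a median of -0.34 and 0 passing (6 unadjusted). Pecam1 differed by -0.37 (adjusted p = 0.252) and Cdh5 by -0.34 (adjusted p = 0.276). All 14 Hedgehog genes were lower with a median of -0.16, and 0 passed (4 unadjusted). These medians kept their sign after quantile normalization, with normexp, in the authors' value table and with the signal covariate. Leaving out scaling lowers every gene of this comparison alike, so a negative median could not turn there. Beside them, the summed level of 12 fibroblast markers was 328 to 344 with TA and 387 to 452 without, and that of 12 follicle stem cell markers was 57.1 to 63.2 against 67.3 to 77.1. Of these markers 8 of 12 and 11 of 12 were lower, with medians of -0.15 and -0.21. The sum of 15 endothelial markers overlapped, at 66.4 to 78.0 and 72.4 to 85.0. The sum for 13 outer root sheath and basal keratinocyte markers was 2331 to 2389 against 2077 to 2196, but 7 of the 13 were higher and 6 lower, with a median of 0.02 that was -0.16 after quantile normalization, -0.02 with normexp and -0.13 in the authors' value table. The sum for 6 red cell markers was 946 to 1138 against 787 to 940, with 5 of 6 higher and a median of 0.26. The part of these cells in the results was not tested.

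Hair and vitamin genes showed no calls. Of 16 hair shaft keratins 0 passed by limma, also at an unadjusted p under 0.05, with a median of -0.05 and single differences of -0.27 to 0.27. That median was 0.27 with the signal covariate. Of 23 matrix and shaft regulators 0 passed (2 unadjusted), and Lef1, which drives shaft genes, differed by -0.38 (adjusted p = 0.429). Of 28 genes of vitamin E uptake, transport and breakdown 0 passed (5 unadjusted), with a median of -0.02. Of 31 targets of NRF2, the main regulator of the response to oxidants, 0 passed (9 unadjusted) and 24 were higher, with a median of 0.10. Nqo1, a standard target, differed by 0.36 (adjusted p = 0.155). Of 24 cholesterol genes 20 were higher with a median of 0.13 and 0 passing (5 unadjusted). The interferon list had a median of 0.29 and 0 of 38 passing, also unadjusted, and its medians in replicates 1, 2 and 3 were 0.62, -0.35 and 0.49. Pnpla3 was the 1 gene to pass of 20 fatty acid synthesis genes. Of 21 dermal papilla markers 0 passed by limma (4 unadjusted), 16 were lower and the median was -0.16. Of 77 mitochondrial ribosomal proteins 3 rose, and of 24 Sm and LSm proteins of the splicing machinery 2 rose, with medians of 0.14 and 0.19. After quantile normalization these were 0.12 and 0.17, and without scaling -0.06 and -0.02 against -0.16 for all genes.

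**Figure D4:**
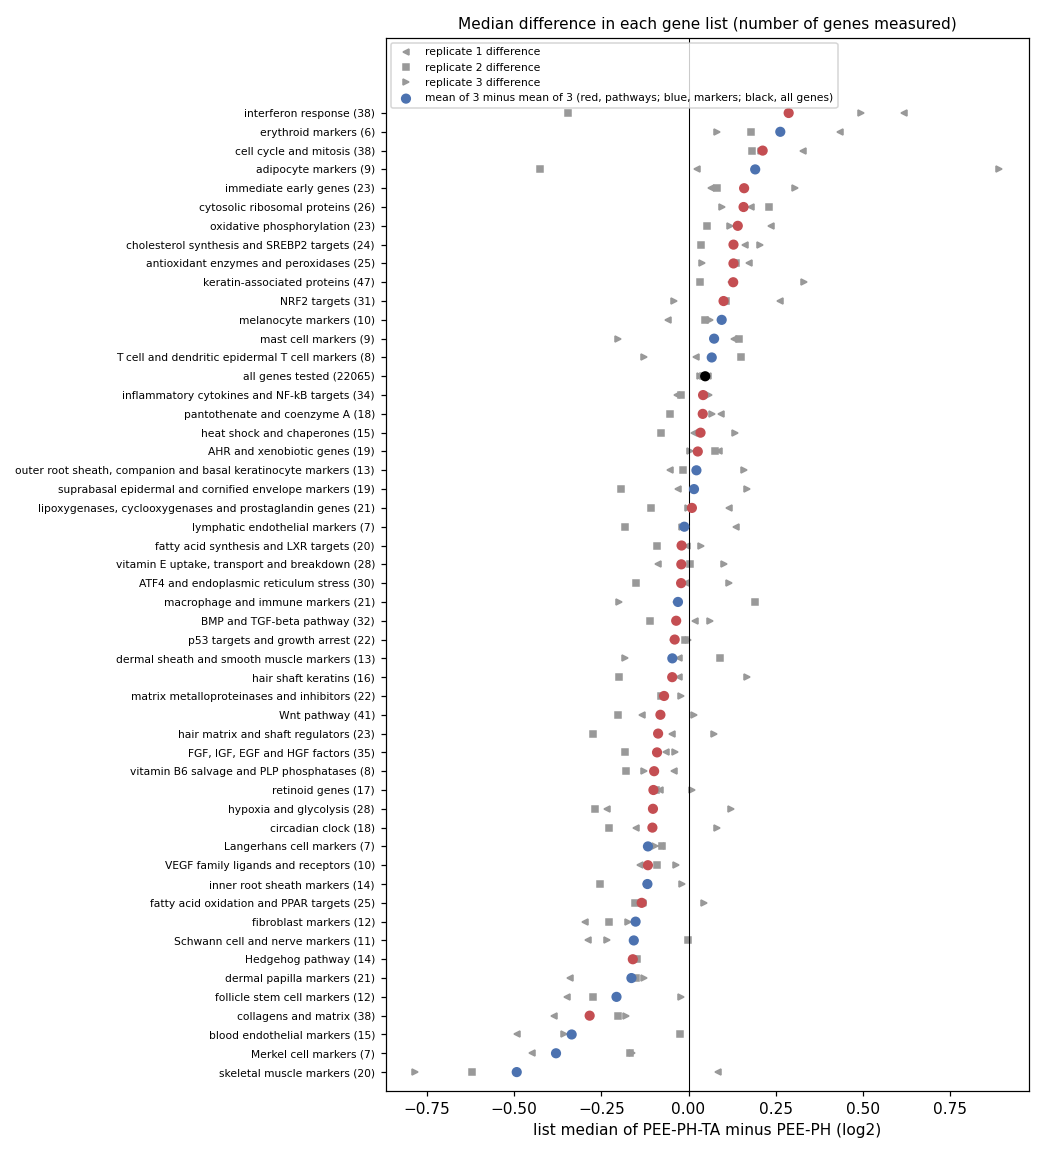
Median difference between PEE-PH-TA and PEE-PH (log2) in each gene list with the number of genes measured; large points are the mean of 3 arrays minus the mean of 3 (red, pathways; blue, cell markers; black, all genes) and grey symbols the difference within each replicate number. Cell cycle lies at 0.21, collagens at -0.28 and skeletal muscle markers at -0.49, with replicate 1 of the muscle markers at 0.09.

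Genes that rose over PEE-PH were mostly lower when TA was given in other backgrounds. None of the arrays below is shared with the comparison of PEE-PH-TA and PEE-PH, although all lie on the same 3 slides. TA alone against control called 88 genes higher (0.399%) and 315 lower (1.43%), PEE-TA against PEE called 1766 (8%) and 3349 (15.2%), and PH-TA against PH called 20 (0.0906%) and 51 (0.231%). Of the 151 risers, 147 were below 0 with TA alone, with a median of -0.25 and 35 called lower. In PEE, 150 were below 0, with a median of -0.40 and 132 called lower. In PH, 139 were below 0, with a median of -0.25 and 8 called lower. Of all genes 54.5, 56.3 and 56.2% were below 0. Of the 8 fallers, 7, 8 and 8 were above 0. Across 22065 genes, which are not independent, the TA effect over PEE-PH correlated at r = -0.469 with that over control, -0.556 with that over PEE and -0.449 with that over PH.

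Array signal moved the opposite way in these backgrounds. It was higher with TA over PEE (177 to 200 against 142 to 147) and over PH (203 to 248 against 180 to 192), and it overlapped over control (175 to 200 against 156 to 191). Without scaling all 151 risers were still above 0 over PEE-PH, with a median of 0.22 against -0.16 for all genes. The same arrays chose the risers, so their values over PEE-PH are a description. Below 0 were then 134 with TA alone, 72 over PEE and 49 over PH. Their medians were then 0.01 over PEE and 0.04 over PH, against 0.37 and 0.26 for all genes, and -0.14 with TA alone against 0.09. Since this moves all genes alike, the risers still lay below the median of all genes in each of the 3 backgrounds.

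**Figure D5:**
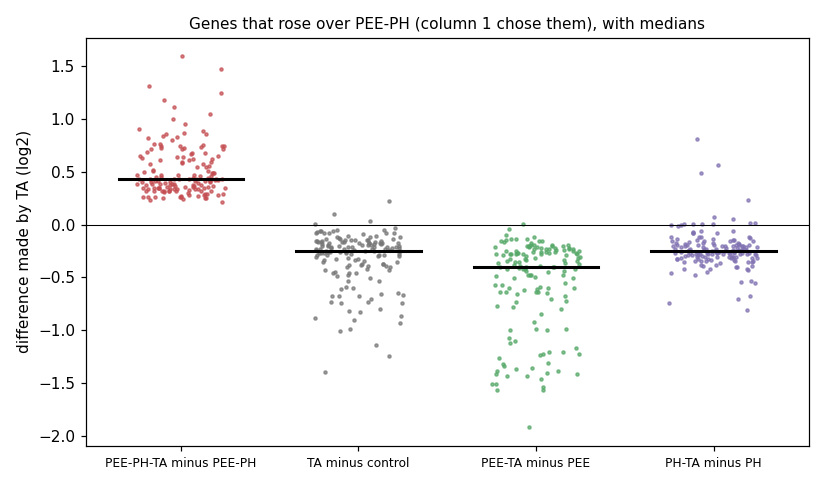
Difference made by TA (log2) in 4 backgrounds for the 151 genes that rose over PEE-PH, each point a gene and each black line the median. The column PEE-PH-TA minus PEE-PH chose the genes and is a description; the medians of the other columns are -0.25 (TA alone), -0.40 (PEE) and -0.25 (PH).

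Tested directly, the TA effect over PEE-PH was higher than TA alone for 1912 genes (8.67%) and lower for 626 (2.84%), and against the mean of the other 3 backgrounds for 3951 (17.9%) and 1982 (8.98%). With array signal as a covariate the totals of 2538 and 5933 became 193 and 1. Without a replicate number in all groups they were 3 to 565 and 1236 to 4605. Higher in the first and the second test were 8 and 19 of the 26 ribosomal genes in the list and 9 and 19 of the 38 cell cycle genes. Lower were 9 and 18 of the 38 collagen and matrix genes, 5 and 12 of the 15 endothelial markers and 8 and 12 of the 20 muscle markers. The share of higher calls moved with the scaling, of which leaving it out shifts all genes alike. Against TA alone the higher calls were 75.3% of all calls, 62.8% after quantile normalization, 58.8% in the authors' value table and 13.9% without scaling. Against the other 3 backgrounds they were 66.6%, and 55.3, 50.8, 77.7 and 5.08% after quantile normalization, in the value table, with normexp and without scaling.

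Differences from the untreated control use the same treated arrays as the comparison, and the choice of risers fixes that they lie higher with TA than without, so these values are a description. The risers' median over control was -0.66 for PEE-PH and -0.17 for PEE-PH-TA, with 147 and 116 of the 151 below 0, against medians of -0.06 and -0.0017 for all genes. ND1 was at -1.15 and -0.33 and Ccn1 at -1.06 and -0.20. For Ccn2 the values were -1.29 and -0.73. Of the fallers, Sod3 was at 0.73 and 0.15 and Kiss1r at 1.73 and 0.76, while Hlf was at 0.07 and -0.62. The cell cycle list had medians of -0.81 and -0.53, and collagens 0.04 and -0.22.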

How the data were processed

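The deposited files were scanner output of 24 one-colour Agilent arrays and a value table. Per the file headers the authors' signal intensity values came from Agilent Feature Extraction 12.0.3.1, with probe positions on mm9. The authors' table holds log2 values whose normalization is not given in the sources used here. Its column for PH-TA replicate 1 correlated at 0.9892 with its own scan and higher with the scan of another array. Every other column correlated best with its own scan. The labels name biotin, while the scans hold 1 green channel. The value tested was log2 of processed signal intensity, as deposited, minus the array's 75th percentile. Probes well above background on all arrays of at least 1 group were kept, 33365 in all, of which 25 with spots marked as outliers were left out, and each gene was represented by its probe of highest mean level, which left 22065 genes.

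Limma (3.58.1, R 4.3.3) was fitted with 8 group means over 24 arrays, with Benjamini-Hochberg adjustment over all genes. Named were the largest risers and fallers, up to 15 each, that passed with separated arrays, gene models left out, up to 3 per direction per list, the VEGF family, and 8 per direction for each test of a difference. Genes named beyond this were chosen after their values were seen, and a few genes that met the rule are not reported here. Members and lists (32 of pathways, 19 of cell markers) were chosen with earlier results of these data known. In simulated data for this comparison over 22065 genes, 56 of 100 genes shifted by log2 0.5 and 83 of 100 shifted by 1 were called, with 11 false calls. The simulated noise was independent between genes and held no effect shared by an array. These figures therefore do not cover the difference in array signal between the groups. The number of arrays limits precision. Alternatives were other scalings and background steps, the value table, no filter, mean of probes, a replicate block, another prior, array signal as a covariate, only these 6 arrays, and leaving out arrays; no scaling was added after the data were seen. Promoter sequence is from RefSeq (GRCm38.p6). Figures used matplotlib (3.10.9).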

Additional observations from a re-analysis of the deposited data

Results flagged for a closer look

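The difference between the TA effect over PEE-PH and that of TA alone passed the limma test of the difference for 2538 genes, and the difference from the mean of the other 3 backgrounds for 5933. With array signal as a covariate these counts became 193 and 1. Values in brackets are the differences on the log2 scale without that covariate. Against TA alone the largest among the named genes reported here were H2bc23 (2.80), H2ac6 (2.63), Ccdc172 (2.52), L1td1 (2.30), Cox7b2 (2.11), Treml2 (2.07), Rergl (2.04) and Nr1i3 (1.99) on the higher side, and Trim63 (-2.26), Gpr17 (-2.23), Klhl30 (-2.21), Spon1 (-2.15), Comp (-2.08) and Cxcl13 (-1.99) on the lower side. Against the other 3 backgrounds they were Ccdc172 (2.35), Agbl4 (2.27), Rergl (2.21), Cox7b2 (2.17), H2bc23 (2.14), H2ac6 (2.03), Ttc21a (2.02) and L1td1 (2.01) on the higher side, and Mcpt1 (-3.16), Gpr17 (-2.52), Comp (-2.13), Spon1 (-2.09), Pcdh10 (-2.02) and Trim63 (-2.02) on the lower side.

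Of these genes Treml2, Nr1i3, Trim63, Klhl30, Comp and Cxcl13 were well above background on all 6 arrays of PEE-PH-TA and PEE-PH. For Treml2 the probe used differed by 0.88 between PEE-PH-TA and PEE-PH, while its other probe gave -0.23. L1td1, Spon1 and Pcdh10 were not well above background on any array of one of the groups. With dim values raised to the lowest level well above background, bounds on the difference of their group means were 1.78-fold, 1.41-fold and 1.41-fold. These bounds leave out the spread between arrays. None of the 3 passed by limma in PEE-PH-TA against PEE-PH (adjusted p = 0.0831, 0.158 and 0.315), and the groups overlapped for Pcdh10. Of all these genes H2ac6 was the 1 to pass in PEE-PH-TA against PEE-PH itself (1.24, adjusted p = 0.0436). Gpr17 was well above background on none of the PEE-PH-TA arrays and on 1 of the 3 PEE-PH arrays, so its values rest on signal near background and no bound is given. H2bc23 and H2ac6 encode histones, and Trim63 and Klhl30 are best known from skeletal muscle. With 3 arrays a group, single outlying arrays were not tested for.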

How the results depend on the processing

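The 159 calls became 18 after quantile normalization, 277 with normexp, 7 in the authors' value table, 15 without the filter on dim probes (36593 genes, median of all 0.117), 567 with a trended, robust prior, and 0 with the signal covariate, only the 6 arrays or no scaling (unadjusted 2361, 3341 and 5100, limma). No scaling, chosen after the data were seen, moved the median of all genes from 0.05 to -0.16. Leaving out 1 array gave 2 to 592 calls: 4, 3 and 592 without PEE-PH replicates 1, 2 and 3, and 2, 2 and 49 without those of PEE-PH-TA. Leaving out a replicate number in all groups gave 0, 0 and 1 (unadjusted 2083, 2290 and 4489, limma). The replicate number is also the slide in all groups. Deviations of same-numbered arrays of PEE-PH-TA and PEE-PH correlated at 0.18, -0.15 and 0.15. These values include the slide and were not set beside arrays of different numbers, so they cannot decide on a pairing. The fit with a replicate block, the slide, gave 348 calls. The 2538 differences from TA alone became 4021 with normexp and 193 with the signal covariate; they numbered 1163 to 2827 without 1 array (1607 and 1312 without control replicates 2 and 3, 1163 and 1648 without PEE-PH replicates 1 and 2) and 471, 3 and 565 without a replicate number. The 5933 differences from the other 3 backgrounds became 11988 with normexp, 12312 without the filter, 11402 without scaling and 1 with the covariate; they numbered 3887 (without PEE-PH replicate 1) to 6376 without 1 array and 2160, 1236 and 4605 without a replicate number. Of 25 named genes called, 25 kept the call with the block and with the trended prior, 22 with the mean of probes, 22 with normexp, 6 after quantile normalization, 5 without the filter and 4 in the value table. None of the 25 changed sign under these settings.

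Signs turned for these values. With normexp, Flt4 gave 0.10, the differences from TA alone became 0.13 (Gpr17) and 0.070 (Spon1), and those from the other 3 backgrounds 0.24 (Gpr17), 0.15 (Spon1) and 0.21 (Pcdh10). With the mean of all probes, Vegfc gave -0.17, Vegfd -0.15, Nrp1 0.034 and Nrp2 -0.031, and without scaling Vegfc -0.15, Vegfd -0.19 and Nrp2 -0.071. Leaving out arrays gave -0.20 to 0.10 for Vegfa, -0.20 to 0.15 for Vegfb and -0.036 to 0.063 for Vegfd. The cause was not tested. Dim probes near background limit the value of H2ac6.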
